A study of Homo sapiens with 24 samples.

Results

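Knockdown of ZNF8 was examined in naive H1 cells, an established human embryonic stem cell line held in a state that resembles the epiblast before implantation. The members are the 3 libraries labelled as ZNF8 knockdown in naive H1 cells and the 3 labelled as nontargeting in the same cells, 6 of the 24 libraries in the series. All genes that passed a filter on low counts were tested, 15323 of the 60671 listed. The labels give doxycycline as the treatment of all 6 libraries, so the controls received it too, and they list one growth medium, StemFlex, for naive and primed cells alike. Polyadenylated RNA was sequenced from stranded mRNA libraries. The other 18 libraries hold a CARHSP1 knockdown and its control in primed H1 cells, a ZIC2 knockdown and its control in H1 cells on day 2 of differentiation to ectoderm, and naive and primed H9 cells, with 3 libraries in each group. Whether replicates came from separate cultures is not in the labels, and the p-values rest on the spread among these libraries alone, part or all of which may be technical.

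Naive cells are marked by KLF17, DPPA3, DPPA5, DNMT3L and NLRP7, genes that primed cells turn down. ZNF8 belongs to the KRAB zinc finger proteins, DNA-binding repressors that usually act through the corepressor TRIM28, also called KAP1. In the mouse, the ZNF8 homolog has been reported to bind Smad1 and to repress BMP signalling. BMP ligands act through receptor kinases that phosphorylate SMAD1 and SMAD5, and their usual targets include the ID genes, the DLX and MSX homeobox genes and, in human embryonic cells, GATA3, TFAP2A and HAND1, which also mark trophoblast and amnion.

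The 6 libraries held between 9679251 and 20773963 counts. The targeted gene itself, ZNF8 at chr19:58278951-58302805, plus strand, on GRCh38, had 14.5, 14.7 and 16.99 CPM in the knockdown libraries, against 22.3, 17.9 and 17.04 CPM in the controls. Knockdown replicate 3 and control replicate 3 were almost level, and the groups were separated only at the edge. The log2 change was -0.32 ± 0.13 (SE), with an adjusted p of 0.0664, so the fall of the target's mRNA did not pass the threshold of 0.05. It passed without knockdown replicate 3 (adjusted p = 0.0413) and without control replicate 3 (adjusted p = 0.0403). Without control replicate 1 the ZNF8 log2 change was -0.19 (adjusted p = 0.381), and it did not pass without knockdown replicate 1 (adjusted p = 0.253), knockdown replicate 2 (adjusted p = 0.167) or control replicate 2 (adjusted p = 0.0775). Among 19 tested genes next to ZNF8 on chromosome 19, 1 was higher and 1 was lower. MZF1, a zinc finger gene, had 8.51, 8.91 and 9.12 CPM in the knockdown libraries, against 3.91, 5.01 and 4.11 CPM in the controls, and CHMP2A, a subunit of the ESCRT membrane machinery, changed by -0.33 ± 0.08 on the log2 scale. Every adjusted p given here comes from edgeR's quasi-likelihood test over all genes tested, and levels are TMM-scaled CPM, counts relative to library size, unless said otherwise. For every gene whose libraries are given one by one, the 2 groups did not overlap, with GATA2 as the exception.

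The naive label of the cells matched the naive markers and, in part, the primed ones. All 10 naive markers were higher in naive than in primed H1 controls. KLF17 had 10.4 CPM in naive and 0 in primed controls, NLRP7 239 and 4.53 CPM, and DPPA5 7.33 and 4.91 CPM (plain CPM). Of the 8 primed markers, THY1, SFRP2 and DUSP6 lay under 1 CPM in naive controls. Only OTX2 was higher in naive than in primed controls (59.1 and 32.4 CPM). VIM stood at 61.9 CPM in naive and 78.1 CPM in primed controls, and CD24 at 523 and 1366.5 CPM. Some markers of other cell types were also higher in naive controls. The mesoderm marker MIXL1 had 123 CPM there and 3.43 CPM in primed controls, and the amnion marker ISL1 24.5 and 0.209 CPM. Of 5 defining fibroblast markers, COL3A1, LUM and DCN had no counts in the knockdown libraries and at most 2 counts over the controls.

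The knockdown and control libraries separated along the first principal component, which held 65.0% of the variance. Of 15323 genes, 3702 were called at an adjusted p under 0.05, which is 24.2%. Of these, 1824 were higher in the knockdown (11.9%) and 1878 were lower (12.3%). Every count of list members called in this knockdown is to be read beside these shares over all genes. With a change of at least 2-fold as well, 579 genes were called (3.78%), 217 higher (1.42%) and 362 lower (2.36%). The 3 libraries of one group lay beyond all 3 of the other for 37.2% of genes. The median log2 change over all genes was -0.01.

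**Figure D1:**
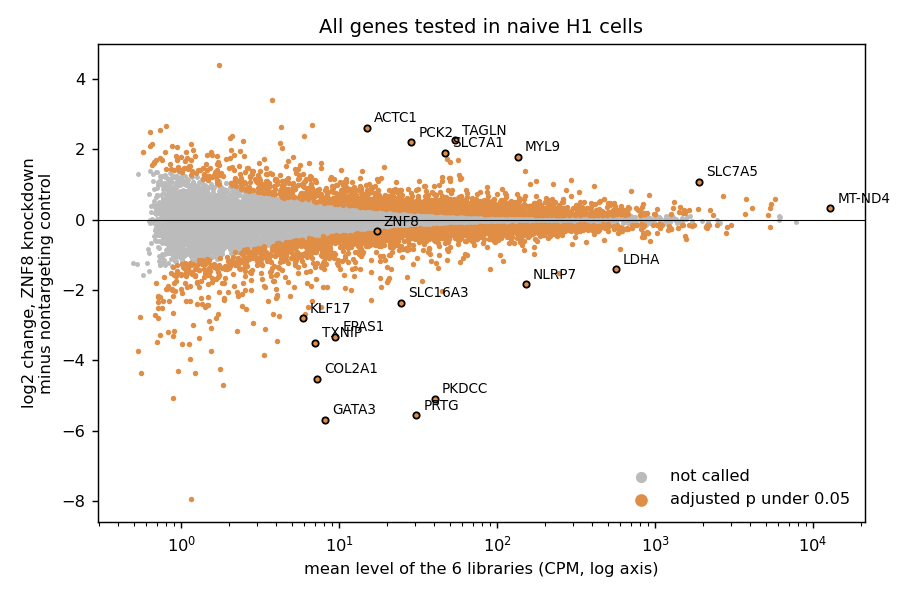
Log2 change in the ZNF8 knockdown against the mean level of each of the 15323 genes tested (CPM, log axis), with the 3702 genes called at an adjusted p under 0.05 in orange. GATA3, PRTG and PKDCC lie below -5 on the log2 scale, and ZNF8 lies near the centre at -0.32.

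Most BMP target genes were lower in the ZNF8 knockdown. Of 12 tested targets of 13 listed, 10 were lower, 1 was higher and 1 was not called, with a median log2 change of -1.96. For comparison, 12.3% of all genes were lower. Genes near the count filter can pass it through the group in which they are high, so counts over tested members of any list lean towards change. GATA3, a zinc finger transcription factor of trophoblast and other epithelia at chr10:8045378-8075203, plus strand, had 0.240, 0.368 and 0.332 CPM in the knockdown libraries, against 16.9, 16.3 and 14.8 CPM in the controls. The groups stood far apart, and the log2 change was -5.68 ± 0.28 (adjusted p = 2.98e-19). HAND1, a basic helix-loop-helix factor of extraembryonic tissue and heart, had 0.192, 0.295 and 0.912 CPM in the knockdown libraries, against 4.402, 7.77 and 6.47 CPM in the controls. The highest knockdown library stayed below every control. TFAP2A, an AP-2 factor of trophoblast and surface ectoderm, had 8.22, 9.80 and 8.21 CPM in the knockdown libraries, against 27.6, 27.1 and 28.4 CPM in the controls. No knockdown library came near the controls.

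The ID genes encode inhibitors of helix-loop-helix factors and respond to BMP receptors within hours. ID4 had 3.60, 4.79 and 5.14 CPM in the knockdown libraries, against 15.7, 17.4 and 18.3 CPM in the controls, without overlap, and a log2 change of -1.95 ± 0.17. ID3 had 0.384, 0.516 and 1.08 CPM in the knockdown libraries, against 1.87, 2.92 and 4.41 CPM in the controls, and changed by -2.27 ± 0.44. ID2 changed by -0.71 ± 0.10 and ID1 by -0.41 ± 0.10. The falls of ID1 and ID2 were thus the smaller ones in the family. Among the homeobox genes, DLX5 had 0.865, 0.589 and 0.580 CPM in the knockdown libraries, against 5.30, 6.18 and 6.77 CPM in the controls, DLX3 changed by -3.16 ± 0.42 and MSX2 by -1.98 ± 0.28. The exceptions were TBX3, a T-box factor also linked to naive cells, which rose by 0.38 ± 0.06, and GATA2, which had 9.51, 11.2 and 8.79 CPM in the knockdown libraries, against 10.8, 12.1 and 11.4 CPM in the controls and was not called (adjusted p = 0.339). The number of lower targets was 10 in every alternative setting and without any 1 library.

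The ligands did not move in one direction. Of 6 tested ligands of 8 listed, 2 were higher and 3 lower. GDF6, a BMP-type ligand, had no counts in any knockdown library and 23, 22 and 31 counts in the controls. Against a floor of 3 counts over the group, it was at least 35.1-fold lower, a bound that covers counting error only. BMP2 had 24.7, 26.3 and 23.5 CPM in the knockdown libraries, against 35.1, 38.01 and 31.9 CPM in the controls, a log2 change of -0.50 ± 0.10. BMP7, by contrast, had 146, 169.8 and 143 CPM in the knockdown libraries, against 105, 110.2 and 105 CPM in the controls, a log2 change of 0.51 ± 0.06. BMP4 was not called, at 82.5 ± 2.70 CPM in the knockdown and 83.1 ± 4.57 CPM in the control (SD, n = 3 each). Per length, BMP4 stood at 86.2 TPM in the knockdown and 90.7 TPM in the control, and GDF6 at 0 TPM in the knockdown and 2.09 TPM in the control.

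Receptors and signal carriers changed little. Of 9 tested members of 10 listed, SMAD1 was higher (0.24 ± 0.09), the receptors ACVR2B (-0.29 ± 0.07) and BMPR1A (-0.19 ± 0.07) were lower, and 6 were not called. These shares, 11.1% higher and 22.2% lower, stand beside 11.9% and 12.3% of all genes. The groups overlapped for BMPR1A, and the BMPR1A log2 change lost its call in 8 of 12 alternatives, with -0.10 (adjusted p = 0.390) without control replicate 1. The SMAD1 log2 change lost its call in 5 of 12, with 0.17 (adjusted p = 0.227) without control replicate 2. Among 5 tested inhibitors of 8 listed, 2 were higher and none was lower. These were SMAD7, the inhibitory SMAD, with 78.04, 90.6 and 85.3 CPM in the knockdown libraries, against 65.5, 61.7 and 68.5 CPM in the controls, and FST, the secreted activin and BMP binder follistatin, with 31.1, 25.9 and 30.3 CPM in the knockdown libraries, against 20.8, 20.4 and 18.9 CPM in the controls. BAMBI, a decoy receptor and itself a BMP target, was not called (-0.19 ± 0.11).

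**Figure D2:**
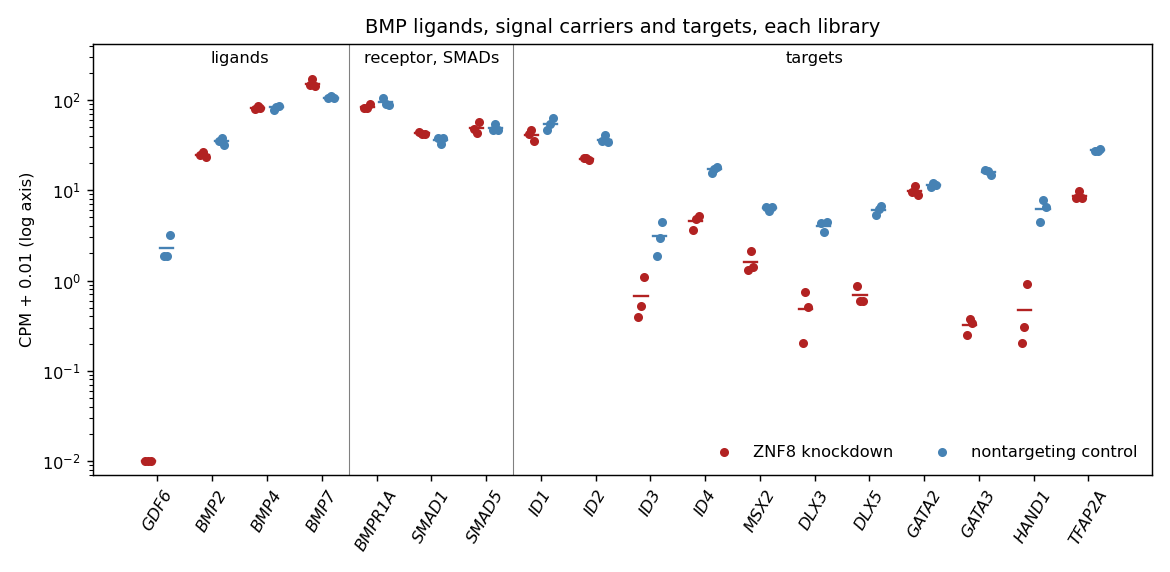
CPM + 0.01 (log axis) of BMP ligands, signal carriers and target genes in each of the 3 ZNF8 knockdown libraries (red) and 3 nontargeting libraries (blue), with lines at the means. The targets on the right separate by group except GATA2, while BMP4, SMAD5 and BMPR1A overlap; GDF6 had 0 CPM in all knockdown libraries and is drawn at 0.01.

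Among markers of trophoblast, amnion and surface ectoderm, lists that share genes with the BMP targets, more were lower than higher. Of 12 tested trophoblast markers of 20 listed, 7 were lower and none was higher, with a median of -0.90. KRT7, a keratin of simple epithelia, had 2.31, 3.17 and 0.912 CPM in the knockdown libraries, against 7.09, 9.94 and 7.60 CPM in the controls. TEAD3, a partner of YAP, changed by -0.96 ± 0.15. Some listed markers were too low to test. CGA, the hormone subunit of mature trophoblast, had 0 counts in the knockdown and 7 in the controls. CDX2 went the other way, with 19 counts (0.411 CPM) in the knockdown and 7 (0.194 CPM) in the controls (plain CPM). VGLL1 lay under 1 CPM in both groups. TFAP2C, shared by naive cells and trophoblast, was not called (0.03 ± 0.05).

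Of 11 tested amnion markers of 13 listed, 6 were lower and 2 were higher. GABRP, a GABA receptor subunit, had 0.721, 0.442 and 0.829 CPM in the knockdown libraries, against 8.40, 7.27 and 6.47 CPM in the controls. VTCN1, an inhibitory B7 family ligand, had 0.240, 0.0737 and 0.166 CPM in the knockdown libraries, against 3.18, 3.93 and 2.98 CPM in the controls, and its groups were far apart. TNC, the matrix protein tenascin C, changed by -1.92 ± 0.19, and IGFBP5, an insulin-like growth factor binder, had 69.9, 67.2 and 62.6 CPM in the knockdown libraries, against 155, 149.9 and 149 CPM in the controls. IGFBP3 and POSTN, which encodes the matrix protein periostin, went the other way, by 0.82 ± 0.09 and 1.15 ± 0.26. Of 17 tested surface ectoderm and epithelial genes of 18 listed, 9 were lower and 3 higher. KRT19 had 73.6, 82.4 and 73.9 CPM in the knockdown libraries, against 99.2, 118 and 133 CPM in the controls, whereas GRHL3, a grainyhead factor, had 47.6, 54.1 and 51.1 CPM in the knockdown libraries, against 31.4, 29.7 and 32.4 CPM in the controls, and the tight junction gene CLDN6 rose by 0.34 ± 0.05. In bulk RNA, fewer cells of a type and less RNA per cell cannot be told apart, and this holds for each marker group. The 6 trophoblast markers used to check cell identity summed to 10.2 to 15.3 CPM in the knockdown and 34.3 to 39.4 CPM in the controls, and the 4 amnion markers to 16.3 to 19.7 CPM in the knockdown and 34.5 to 39.0 CPM in the controls. Most of the trophoblast fall lay in GATA3 (mean 0.310 against 16.1 CPM) and KRT7 (2.11 against 8.26 CPM). GATA2 had 9.73 against 11.5 CPM, and CDX2, CGA and VGLL1 lay under 1 CPM in both groups (plain CPM).

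Most markers of the naive state fell, while POU5F1 and NANOG were not called. The naive list held 26 symbols, among them ALPPL2, an older symbol of the listed ALPG. Of 21 tested naive markers, 14 were lower and 1 was higher, with a median of -0.40, and 14 were lower in every alternative. KLF17, a Krüppel-like factor of the human preimplantation embryo at chr1:44118850-44135140, plus strand, had 1.78, 1.25 and 1.24 CPM in the knockdown libraries, against 10.1, 11.4 and 9.34 CPM in the controls, a log2 change of -2.81 ± 0.24. NLRP7, an oocyte and embryo gene tied to maternal imprinting, had 67.03, 65.6 and 66.6 CPM in the knockdown libraries, against 241, 232 and 239 CPM in the controls. Neither gene's groups overlapped. DNMT3L, the cofactor of the de novo DNA methyltransferases, had 15.8, 14.6 and 15.4 CPM in the knockdown libraries, against 46.95, 50.6 and 55.8 CPM in the controls. ALPG, a placental-type alkaline phosphatase, had 17.1, 16.8 and 19.1 CPM in the knockdown libraries, against 71.2, 73.4 and 70.7 CPM in the controls. Its near-identical relative ALPP also fell (-1.91 ± 0.29), and reads may be split between the pair. DPPA2, a chromatin factor of early embryos, had 28.6, 28.95 and 28.6 CPM in the knockdown libraries, against 59.3, 55.2 and 57.8 CPM in the controls, a change of -0.9998 ± 0.08, and DPPA3 and DPPA5 changed by -2.01 ± 0.19 and -2.73 ± 0.28.

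Not every naive gene fell. TFCP2L1 (-0.16 ± 0.09), KLF4 (-0.09 ± 0.07), ZFP42 (0.06 ± 0.05) and PRDM14 (-0.12 ± 0.05) were not called. The summed level of the 10 identity markers of the naive state was 226 to 235 CPM in the knockdown and 554 to 565 CPM in the controls (plain CPM).

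Of 14 core pluripotency genes, 7 were lower, none was higher and 7 were not called, and no change reached 2-fold. POU5F1 and NANOG, the central factors, changed by -0.02 ± 0.04 and -0.05 ± 0.06 and were not called. SOX2 fell by less, in log2 terms, than most naive markers (-0.25 ± 0.05). DNMT3B, a de novo methyltransferase, had 702, 734 and 701 CPM in the knockdown libraries, against 975, 999 and 998 CPM in the controls. LIN28A, an RNA-binding protein that blocks let-7 maturation, had 756, 761 and 783 CPM in the knockdown libraries, against 1007, 961 and 994 CPM in the controls, and the noncoding RNA ESRG had 2269.9, 2499 and 2573 CPM in the knockdown libraries, against 3353, 3142 and 3085 CPM in the controls. None of these groups overlapped. TDGF1, the Nodal coreceptor, changed by -0.38 ± 0.05.

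Primed markers did not rise together. Of 16 tested of 20 listed, 4 were higher and 6 lower, with a median of -0.14, and THY1, SFRP2 and DUSP6 were too low to test. ZIC2, a zinc finger factor of primed cells, had 19.4, 23.6 and 22.9 CPM in the knockdown libraries, against 13.8, 12.7 and 11.1 CPM in the controls, still far below the 194 CPM of primed H1 controls (plain CPM). CDH2, which encodes N-cadherin, had 49.9, 43.7 and 43.4 CPM in the knockdown libraries, against 30.6, 33.1 and 29.5 CPM in the controls. CRABP1, a retinoic acid binder, was lower (-0.37 ± 0.07).

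The H9 libraries, which share no sample with the ZNF8 comparison, gave a list of state-dependent genes from other cells. Of 15761 genes tested in H9, 51.5% differed between the states. Of 157 genes at least 4-fold higher in naive than in primed H9 cells, 153 were tested here, and 50 of them (32.7%) were lower and 31 (20.3%) higher, with a median of -0.12. Of 178 genes at least 4-fold higher in primed H9 cells, 138 were tested, and 35 (25.4%) were higher and 25 (18.1%) lower, with a median of 0.05. Among the 14123 genes tested in both cell lines, 12.3% were higher and 12.5% lower. The shares of both lists lay above these in both directions, without a test of that excess. Among genes tested in both lines, the 50 naive genes make up 2.84% of the 1760 that were lower, and the 35 primed genes 2.01% of the 1740 that were higher. H9 naive cells had only 0.0679 CPM of KLF17, the tables of the lines being normalized separately.

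**Figure D3:**
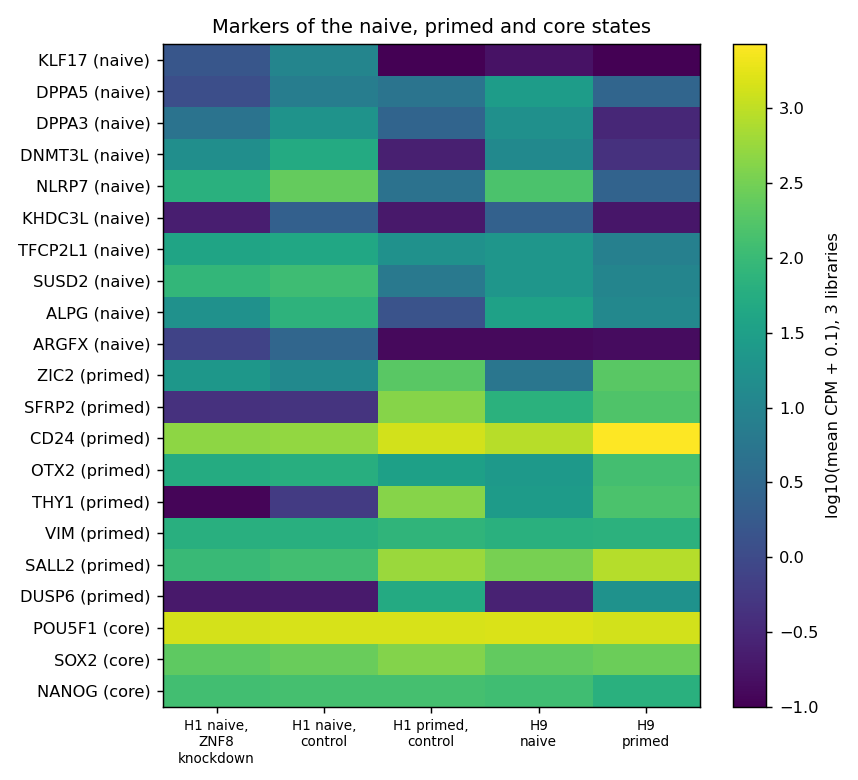
Mean level, as log10(CPM + 0.1) over 3 libraries, of naive, primed and core markers in H1 naive cells with ZNF8 knockdown, their controls, primed H1 controls, and naive and primed H9 cells. In the knockdown column KLF17, DPPA5, DPPA3, DNMT3L, NLRP7, KHDC3L, ALPG and ARGFX are darker than in the control column, whereas THY1, SFRP2 and DUSP6 stay under 1 CPM and POU5F1 and NANOG keep their level.

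Among genes with a mean of at least 5 CPM, the largest falls after GATA3 were in PRTG and PKDCC. PRTG, which encodes protogenin, an immunoglobulin superfamily receptor of the early embryo, at chr15:55611546-55743090, minus strand, had 1.25, 0.810 and 1.82 CPM in the knockdown libraries, against 63.7, 50.2 and 66.7 CPM in the controls, a log2 change of -5.55 ± 0.17 (adjusted p = 4.51e-26). PKDCC, a secreted tyrosine kinase of skeletal development at chr2:42048020-42058528, plus strand, had 2.16, 1.62 and 3.15 CPM in the knockdown libraries, against 72.5, 81.1 and 79.95 CPM in the controls, a change of -5.10 ± 0.13 (adjusted p = 6.91e-28). Both had at least 50.2 CPM in every control and at most 3.15 CPM in any knockdown library. COL2A1, a fibrillar collagen of cartilage and early embryos, had 0.769, 0.221 and 0.746 CPM in the knockdown libraries, against 13.3, 15.9 and 12.5 CPM in the controls. TXNIP, the inhibitor of thioredoxin and of glucose uptake, had 1.63, 0.884 and 0.663 CPM in the knockdown libraries, against 12.9, 13.5 and 12.5 CPM in the controls. For both, every knockdown library lay below every control.

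EPAS1, which encodes the hypoxia-inducible factor HIF-2 alpha, had 2.55, 1.10 and 1.16 CPM in the knockdown libraries, against 19.4, 17.4 and 15.1 CPM in the controls. S100A14, an epithelial calcium binder, changed by -2.67 ± 0.24, COL10A1 by -2.49 ± 0.23, ELAPOR1 by -2.48 ± 0.21 and the endocytic receptor LRP2 by -2.32 ± 0.22. The 12 largest falls among genes with a mean of at least 5 CPM lay between -5.68 and -2.32. IGF2, an imprinted growth factor and the only lower gene among 18 tested imprinted genes of 24 listed, had 0.144, 0.147 and 0.0829 CPM in the knockdown libraries, against 3.99, 3.09 and 3.59 CPM in the controls. Of the other imprinted genes, 5 were higher, among them GRB10 (0.49 ± 0.07) and PEG10 (0.26 ± 0.06).

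Genes of the contractile actin cytoskeleton rose together. These are classic targets of serum response factor (SRF), which binds a CArG box and is driven by MRTF coactivators released from G-actin. Of 24 tested members of 25 listed, 20 were higher and none lower, with a median of 0.49, beside 11.9% higher among all genes. TAGLN, the actin binder transgelin, had 85.00, 95.4 and 88.3 CPM in the knockdown libraries, against 18.99, 18.4 and 18.6 CPM in the controls, a log2 change of 2.26 ± 0.09. MYL9, the regulatory light chain of smooth and nonmuscle myosin, had 212, 221 and 192 CPM in the knockdown libraries, against 54.6, 62.7 and 64.1 CPM in the controls. Both were separated with a wide gap.

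The muscle actins followed. ACTC1, cardiac actin, had 25.2, 29.3 and 22.5 CPM in the knockdown libraries, against 4.16, 4.18 and 4.21 CPM in the controls, and ACTG2, enteric smooth muscle actin, had 87.5, 91.6 and 79.1 CPM in the knockdown libraries, against 24.05, 28.3 and 27.1 CPM in the controls. ACTA1, skeletal muscle actin, which was not on the list, had 73.95, 83.2 and 72.4 CPM in the knockdown libraries, against 22.2, 25.3 and 25.6 CPM in the controls. These actins are near-identical copies, so part of the reads may be split among them. ACTB, the cytoplasmic actin, had 5879.7, 6277 and 5789.9 CPM in the knockdown libraries, against 4738, 4676 and 4688 CPM in the controls, a change of 0.35 ± 0.04. CALD1, which encodes caldesmon, had 588, 603 and 619 CPM in the knockdown libraries, against 436, 423 and 431 CPM in the controls, and SRF itself rose by 0.28 ± 0.07.

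A CArG box lay within 250 bases before a RefSeq start, on GRCh38.p14, in 9 of the 21 list members with a promoter in the table (42.9%), against 162 of 11062 tested genes (1.46%). The motif was searched as 6 A or T letters between CC and GG, and it reads as the same pattern on both strands. The list was made of SRF targets, so the excess describes the list. The box and 25 bases on each side are shown for the 5 called members with the smallest adjusted p that hold one, with the box in capitals, so that it can be read beside changes of 1.70 for ACTG2, 2.62 for ACTC1, 0.50 for FLNA, 0.42 for ACTN1 and 0.32 for CNN2.
ACTG2, chr2:73892910-73892969, plus strand: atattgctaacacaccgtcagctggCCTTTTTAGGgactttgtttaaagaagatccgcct
ACTC1, chr15:34795624-34795683, minus strand: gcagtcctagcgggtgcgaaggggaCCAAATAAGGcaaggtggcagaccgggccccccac
FLNA, chrX:154374694-154374753, minus strand: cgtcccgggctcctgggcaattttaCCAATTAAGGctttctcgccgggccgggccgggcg
ACTN1, chr14:68977703-68977762, minus strand: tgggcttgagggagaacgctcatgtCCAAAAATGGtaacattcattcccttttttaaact
CNN2, chr19:1026494-1026553, plus strand: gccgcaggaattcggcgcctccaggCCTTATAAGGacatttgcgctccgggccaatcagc

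TAGLN and MYL9, which rose by at least as much as ACTG2, were not among the 9 members with a match. Only 21 of the 24 tested members had a promoter to search, so a missing match need not mean that the letters are absent. Matrix genes moved in both directions. Of 21 tested matrix and integrin genes of 24 listed, 12 were higher and 5 lower. COL6A1, a chain of collagen VI, had 297, 333 and 280.3 CPM in the knockdown libraries, against 134, 148 and 171 CPM in the controls, and COL5A2 and the matrix glycoprotein SPARC rose by 0.64 ± 0.08 and 0.33 ± 0.04. LAMA1, the laminin chain of the embryonic basement membrane, had 15.1, 13.1 and 13.8 CPM in the knockdown libraries, against 25.6, 29.7 and 29.3 CPM in the controls, and FN1 fell slightly (-0.22 ± 0.04). COL4A4, a basement membrane collagen with 10.4, 9.43 and 10.4 CPM in the knockdown libraries, against 2.69, 1.34 and 1.74 CPM in the controls, was among the largest rises. All 4 tested fibroblast markers of 12 listed were higher, COL1A1, COL1A2, TWIST1 and POSTN. Of those too low to test, THY1 had 1 count in the knockdown and 17 in the controls, and TWIST2 had 25 and 12. COL3A1, LUM and DCN had no counts in the knockdown. The 5 identity markers of fibroblasts summed to only 8.98 to 11.6 CPM in the knockdown and 5.63 to 7.96 CPM in the controls. Most of that sum was COL1A1 (10.1 against 6.46 CPM), which stood at 125 CPM in primed H1 controls (plain CPM). The part of such cells in the matrix genes was not tested. Of 13 YAP and TEAD genes, 4 were higher and 1 lower, with TEAD1 at 0.49 ± 0.06 and CCN1 at 0.50 ± 0.10.

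Most genes of amino acid supply rose. Serine and glycine synthesis, amino acid import and the mitochondrial folate cycle are usual targets of ATF4, the factor that cells translate under amino acid or endoplasmic reticulum stress. Of 22 tested members of 24 listed, 14 were higher and 1 lower, with a median of 0.55. PCK2, the mitochondrial PEP carboxykinase, had 46.7, 47.5 and 47.00 CPM in the knockdown libraries, against 11.4, 8.77 and 10.3 CPM in the controls, a change of 2.21 ± 0.11 (adjusted p = 7.61e-19). SLC7A1, the cationic amino acid transporter, had 72.5, 76.3 and 71.5 CPM in the knockdown libraries, against 20.7, 20.5 and 17.04 CPM in the controls. SLC7A5, the large neutral amino acid transporter, had 2545, 2752 and 2453 CPM in the knockdown libraries, against 1147, 1228 and 1271 CPM in the controls and gave one of the largest rises in CPM.

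The serine pathway enzymes PHGDH and PSAT1 changed by 1.01 ± 0.05 and 1.10 ± 0.06. PHGDH had 213, 219 and 219 CPM in the knockdown libraries, against 109, 108 and 106 CPM in the controls, and PSAT1 had 250.3, 224 and 240.1 CPM in the knockdown libraries, against 112, 112 and 109.9 CPM in the controls. The cystine transporter SLC7A11 (0.39 ± 0.07), the glutathione-degrading enzyme CHAC1 (0.87 ± 0.12) and the pseudokinase TRIB3 (0.88 ± 0.10) also rose. ATF4 mRNA was not called (-0.01 ± 0.05), DDIT3 was not called (0.36 ± 0.20), and DDIT4, an inhibitor of mTORC1, fell (-0.84 ± 0.11). None of 12 endoplasmic reticulum chaperone and unfolded protein response genes was called in either direction, with XBP1 at 0.12 ± 0.05 and CALR at 0.08 ± 0.04. The letters TGATGNAA, a form of the ATF4 site, were searched on either strand in the 250 bases before the start. They stood in 2 of 18 list members (11.1%), ATF3 and CHAC1, against 2.40% of tested genes. The actin list had nearly the same share, 2 of 21 (9.52%), and the glycolysis list 1 of 22 (4.55%). The sterol, hypoxia and BMP target lists had none. The amino acid list was made of usual ATF4 targets, so its share describes the list. NIBAN1, a stress-induced gene, showed the largest rise among genes with a mean of at least 5 CPM, with 10.6, 12.6 and 11.6 CPM in the knockdown libraries, against 1.79, 1.504 and 2.05 CPM in the controls. LRAT, the enzyme that esterifies retinol, had 72.6, 79.05 and 71.4 CPM in the knockdown libraries, against 24.6, 21.4 and 21.1 CPM in the controls.

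Most cholesterol synthesis genes rose, by smaller amounts. Of 22 genes, 16 were higher and 2 lower, with a median of 0.47 and no change of 2-fold. HMGCS1, an early enzyme of the mevalonate pathway, had 567, 546 and 595 CPM in the knockdown libraries, against 377, 368 and 381 CPM in the controls, a log2 change of 0.60 ± 0.05. SQLE, squalene epoxidase, changed by 0.58 ± 0.05 and MSMO1 by 0.58 ± 0.06. The SREBP2 gene SREBF2 rose by 0.28 ± 0.05. Of 10 fatty acid synthesis genes, 6 were higher and 2 lower, with SCD at 0.26 ± 0.04 and ELOVL6 at -0.20 ± 0.06. The ELOVL6 log2 change lost its call without control replicate 3 (adjusted p = 0.0894).

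Most glycolysis genes fell. Of 23 genes, 16 were lower and 1 was higher, with a median of -0.35. LDHA, the enzyme that makes lactate, at chr11:18394388-18408425, plus strand, had 308, 299 and 319.9 CPM in the knockdown libraries, against 814, 811 and 829 CPM in the controls, a change of -1.41 ± 0.05 (adjusted p = 1.03e-24). SLC16A3, the lactate exporter MCT4, had 8.17, 8.84 and 6.80 CPM in the knockdown libraries, against 36.1, 42.4 and 44.6 CPM in the controls. For both, the groups lay far apart. PDK1, a kinase that inhibits pyruvate dehydrogenase, had 24.8, 21.4 and 23.9 CPM in the knockdown libraries, against 54.5, 54.3 and 50.3 CPM in the controls. ENO1 had 1269.8, 1315 and 1268 CPM in the knockdown libraries, against 1868, 1920.5 and 1829 CPM in the controls, and PKM changed by -0.59 ± 0.04. Several of these genes have processed pseudogenes that could take reads. The single rise was PFKP, the platelet form of phosphofructokinase, at 0.67 ± 0.05.

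More hypoxia genes were lower than higher. Of 12 tested genes of 13 listed, 7 were lower and 1 was higher, with a median of -0.43. BNIP3, a mitophagy receptor, had 108, 105 and 103 CPM in the knockdown libraries, against 195, 191 and 187 CPM in the controls, and BNIP3L and the collagen hydroxylase P4HA1 changed by -0.77 ± 0.08 and -0.51 ± 0.07. VEGFA, the angiogenic growth factor, rose instead (0.95 ± 0.20), and HIF1A mRNA was not called (-0.03 ± 0.05). The core letters of a hypoxia response element, ACGTG on either strand, stood within 250 bases before the start of 14 of 22 glycolysis genes (63.6%). The same held for 4 of 9 hypoxia genes (44.4%), against 28.4% of all tested genes. Both lists hold genes picked by function, so these shares describe the lists. A role of the letters in the changes was not tested. The nearest match to the start and its surroundings are shown for LDHA, SLC16A3, BNIP3 and PDK1, which fell, and for PFKP, which rose, with each match in capitals, to show that the letters occur with either direction.
LDHA, chr11:18394465-18394519, plus strand: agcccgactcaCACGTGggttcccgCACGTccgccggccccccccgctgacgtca
SLC16A3, chr17:82228962-82229016, plus strand: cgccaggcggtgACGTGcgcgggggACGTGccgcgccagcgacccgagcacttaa
BNIP3, chr10:131982027-131982081, minus strand: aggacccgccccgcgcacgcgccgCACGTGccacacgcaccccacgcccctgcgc
PDK1, chr2:172556057-172556089, plus strand: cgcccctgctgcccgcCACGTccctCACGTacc
PFKP, chr10:3069025-3069079, plus strand: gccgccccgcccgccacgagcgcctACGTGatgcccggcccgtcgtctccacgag

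Most mitochondrially encoded mRNAs rose. Of 13 respiratory chain genes of the mitochondrial genome, 9 were higher and none lower, with a median of 0.33. MT-ND1, a subunit of complex I, had 3003, 3483 and 3389 CPM in the knockdown libraries, against 2143, 2109.9 and 1961 CPM in the controls, without overlap. MT-ATP6, a subunit of ATP synthase, had 6092, 7369.8 and 7276 CPM in the knockdown libraries, against 4987, 4311 and 4436 CPM in the controls, and MT-CYB changed by 0.46 ± 0.05. These 13 genes together took 6.05% to 6.92% of all counts in the knockdown and 5.39% to 5.90% in the controls. This share restates the same rise, and its cause was not tested. Of 18 nuclear respiratory chain genes, 8 were higher and 1 lower, among them CYC1 (0.40 ± 0.07) and UQCRC1 (0.24 ± 0.05), with COX6C lower (-0.26 ± 0.06).

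More silencing factors were lower than higher. Of 16 KAP1 and HUSH genes, 6 were lower and 1 higher, with a median of -0.13. CHD3, a remodeller of the NuRD complex, had 54.97, 64.2 and 60.2 CPM in the knockdown libraries, against 78.9, 91.1 and 91.04 CPM in the controls, and HDAC1 and ATF7IP, the partner of SETDB1, changed by -0.30 ± 0.05 and -0.29 ± 0.05. TRIM28 was not called (0.03 ± 0.05). Of 10 tested DNA methylation genes of 11 listed, 6 were lower, among them UHRF1 (-0.61 ± 0.11) and TET2 (-0.69 ± 0.12), and none was higher. Among 511 tested genes with a zinc finger symbol, a list added after the values were seen, 86 were lower (16.8%) and 18 higher (3.52%), with a median of -0.12, beside 12.3% lower and 11.9% higher among all genes. At 2-fold, 6 of the 511 were lower, a smaller share than the 2.36% of all genes. None was higher at 2-fold, beside 1.42% of all genes.

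More replication genes were lower than higher, by small amounts. Of 16 S phase genes, 9 were lower and none higher, with MCM6 at -0.35 ± 0.05 and PCNA, the polymerase clamp, at 136, 138 and 153 CPM in the knockdown libraries, against 193, 179 and 191 CPM in the controls. Of 14 mitosis genes, 4 were lower and none higher, with TOP2A at -0.38 ± 0.06. Of 16 tested p53 genes of 18 listed, 2 were higher, CDKN1A (0.54 ± 0.14) and RRM2B (0.30 ± 0.08), and 4 lower, with BAX at -0.21 ± 0.06. The BAX log2 change lost its call without knockdown replicate 2 (adjusted p = 0.0636), control replicate 2 (adjusted p = 0.0513) or control replicate 3 (adjusted p = 0.0515). Of 12 tested heat shock and immediate early genes, 3 were higher and 3 lower. Of 14 interferon and MHC class I genes, 3 were higher and 5 lower, with IFI6 at -1.36 ± 0.20 and ISG15 at 0.73 ± 0.17.

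Among signalling lists, the FGF receptor FGFR1 had a larger change than most, with 70.5, 69.9 and 65.4 CPM in the knockdown libraries, against 140.1, 143 and 133 CPM in the controls. Of 16 tested FGF and ERK genes of 21 listed, 3 were higher and 5 lower, with the ligand FGF4 at -0.40 ± 0.05 and the ligand FGF2 at 0.22 ± 0.05, in opposite directions. Of 14 tested TGF-beta and Nodal genes of 16 listed, 5 were higher and 3 lower. LEFTY2, a Nodal inhibitor and target, had 2075, 2116 and 2013 CPM in the knockdown libraries, against 1676, 1669 and 1648 CPM in the controls, NODAL rose by 0.35 ± 0.06, and TGFB2 had 18.6, 20.1 and 19.8 CPM in the knockdown libraries, against 7.91, 9.11 and 12.8 CPM in the controls. Of 9 tested WNT genes of 16 listed, 1 was higher and 2 lower, with the secreted inhibitors FRZB at 0.97 ± 0.15 and SFRP1 at -1.08 ± 0.20. The WNT shares were 11.1% higher and 22.2% lower, beside 11.9% and 12.3% of all genes. Neural ectoderm (2 higher and 2 lower of 7 tested), mesendoderm and mesoderm (none of 5 called, with KDR at 0.04 ± 0.11) and endoderm (1 lower of 3 tested) gave no common direction. Of 3 tested germline markers DDX43 was lower (-0.77 ± 0.18), and of 2 tested 8-cell-like markers SLC34A2 was higher (2.51 ± 0.69), at about 1 CPM. The SLC34A2 log2 change lost its call without control replicate 1 (adjusted p = 0.0589) or control replicate 2 (adjusted p = 0.0574), and was 4.42 without control replicate 3.

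**Figure D4:**
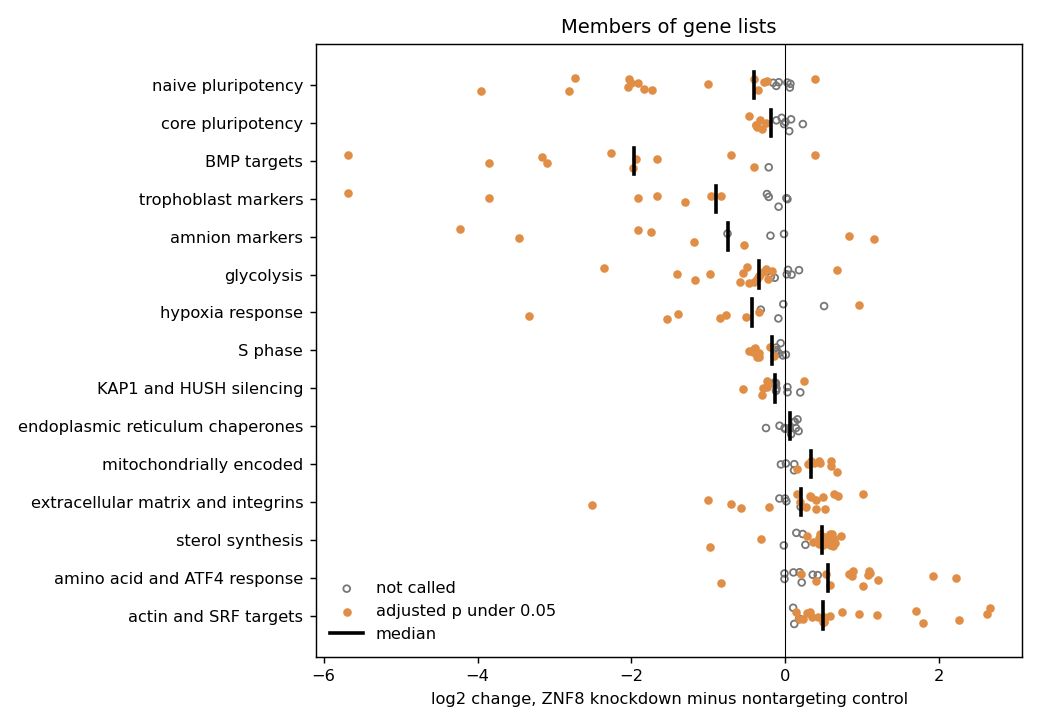
Log2 change of each tested member of 15 gene lists in the ZNF8 knockdown, with called genes filled in orange, others open, and a bar at each list's median. BMP targets, trophoblast and naive markers reach far to the left, glycolysis lies left of 0, and sterol, amino acid and actin lists lie right of it.

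The CARHSP1 and ZIC2 knockdowns in the same cell line, each with its own controls and sharing no library with the ZNF8 comparison, show which of these changes were also seen elsewhere. The CARHSP1 knockdown called 20.2% of its tested genes and the ZIC2 knockdown 28.1%. The ZNF8 effect differed from the CARHSP1 effect for 3013 of 17390 genes (17.3%) and from the ZIC2 effect for 3105 (17.9%), by an interaction test over all 18 H1 libraries. These knockdowns also differ in cell state, so gene and state cannot be told apart. Of the 24 largest changes, 19 differed from the CARHSP1 effect, 19 from the ZIC2 effect and 17 from both. These genes were picked for a large ZNF8 effect, which also enters the difference. The counts therefore cannot show that the changes are particular to ZNF8. KLF17, among them, had 0 CPM in the primed and ectoderm H1 groups, so no fall could be seen there.

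More actin genes were higher than lower in all 3 knockdowns. Of the 24 genes, 20 were higher with ZNF8, 11 with CARHSP1 and 19 with ZIC2. TAGLN changed by 2.26 with ZNF8, 1.85 with CARHSP1 and 3.22 with ZIC2, and MYL9 by 1.79, 1.58 and 2.23 in the same order. The same held for the amino acid list, with 14, 10 and 21 of 22 genes higher. The difference was called for 11 of 22 genes against CARHSP1, all with the larger effect in ZNF8, and for 17 against ZIC2, 15 of them lower in ZNF8. In both pluripotent settings more glycolysis genes were lower, with 16 of 23 genes lower with ZNF8 and 21 with CARHSP1, but with 6 lower and 7 higher with ZIC2. Naive markers were lower for 11 of 15 genes tested with CARHSP1, in primed cells where they are low. Their median was -0.76 with CARHSP1 and -0.40 over the 21 genes tested with ZNF8. The difference was called for 8 of 21 naive genes, with the ZNF8 effect above the CARHSP1 effect for 6 and below it for 2. Hypoxia genes were lower for 8 of 11 tested with CARHSP1 (median -0.53) and 7 of 12 with ZNF8 (median -0.43). With ZIC2, 3 of 11 hypoxia genes were lower and 3 higher.

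Other changes differed, at least in part, between the knockdowns. Sterol genes were higher for 16 of 22 with ZNF8, whereas 15 were lower with CARHSP1, and the difference was called for 17 of 22, all above. HMGCS1 changed by 0.60 with ZNF8 and -0.75 with CARHSP1, a difference of 1.36 ± 0.07. PKDCC changed by -5.10, 0.38 and 0.33 with ZNF8, CARHSP1 and ZIC2, and the difference was -5.47 ± 0.16 from CARHSP1 (adjusted p = 5.10e-27). PRTG changed by -5.55 with ZNF8, -0.02 with CARHSP1 and -0.59 with ZIC2. Of the 12 BMP targets, 7 passed the count filter in the CARHSP1 comparison, where 3 were lower and 1 higher, with a median of -0.57. In the ZIC2 comparison 5 passed, where 3 were higher and 1 lower. The difference from CARHSP1 was called for only 5 of the 12, with the ZNF8 effect below for 4 and above for 1. The difference from ZIC2 was called for 9, all below. ID3 changed by -2.27 with ZNF8, 0.30 with CARHSP1 and 1.49 with ZIC2, and ID2, lower with all 3, by -0.71, -0.57 and -0.79. Of 16 p53 genes, 2 were higher with ZNF8, 12 with CARHSP1 and 16 with ZIC2, and the difference was called for 10 against CARHSP1 and 15 against ZIC2, all lower in ZNF8.

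**Figure D5:**
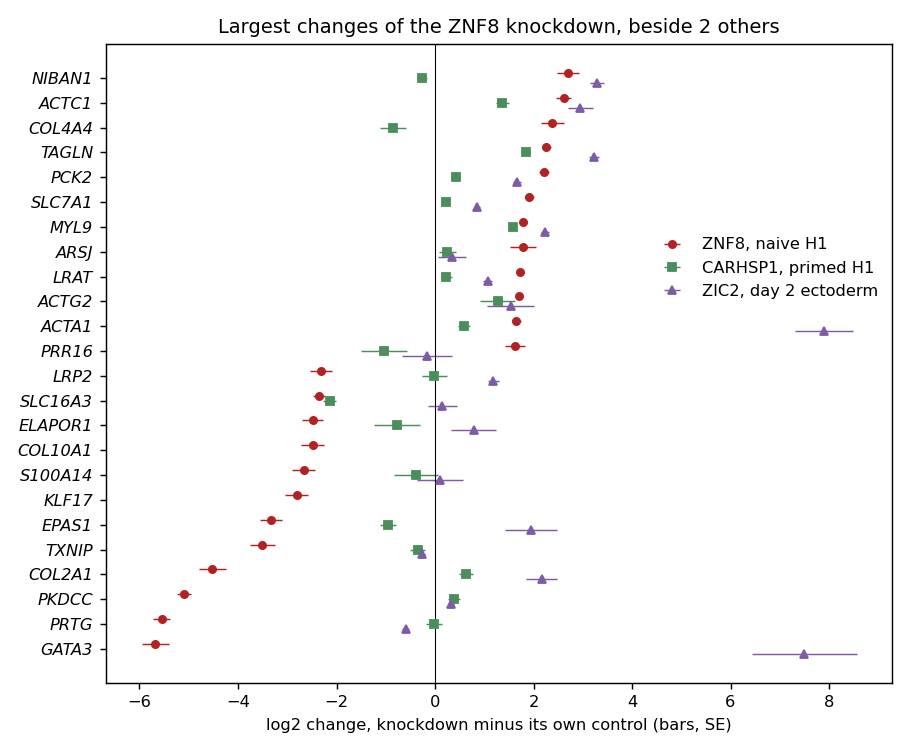
Log2 change (bars, SE) of the 12 largest rises and 12 largest falls of the ZNF8 knockdown (red circles), with the change of the same gene in the CARHSP1 knockdown (green squares) and the ZIC2 knockdown (purple triangles), each against its own controls; genes not tested there have no mark, and GATA3 had no counts in the ZIC2 controls, so its ZIC2 value depends on the prior count. TAGLN, MYL9, ACTC1 and ACTG2 are right of 0 in all 3, while PRTG, PKDCC and COL2A1 lie at -5.55, -5.10 and -4.52 with ZNF8 and between -0.59 and 2.16 in the others.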

How the data were processed

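Sequencing of polyadenylated RNA gave raw read counts for each gene, which the authors deposited in 1 table for 18 H1 libraries and 1 for 6 H9 libraries. HISAT2 and GRCh38 are named as aligner and build per the submitters' processing notes. How reads were counted, with which annotation and strand setting, is not given in the sources used. The H1 table holds 27 further columns that match no sample described here and were not used. The deposited gene lengths gave TPM, used only to compare levels between genes.

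From the deposited counts, edgeR 4.0.16 in R 4.3.3 was fitted to the 6 libraries (filterByExpr, TMM, quasi-likelihood F test, 2-sided, Benjamini-Hochberg, threshold 0.05). A log2 change is knockdown minus control, with its SE from the F statistic. Differences between knockdowns came from 1 fit of 18 libraries. H9 lists needed an adjusted p under 0.05, 4-fold and a mean of 5 CPM. In data simulated with the fitted spread, 98% of 2-fold and 88% of 1.5-fold changes were recovered. The changes were set only in genes with a mean above 5 CPM, so recovery at lower levels was not tested. The biological coefficient of variation was 6.57%. Replicates of a group differed by more than sampling noise (chi-square per degree of freedom, 2.87 to 4.57).

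Symbols came from the gene name table (60401 of 60671) and positions from GENCODE 29. Promoters were taken from RefSeq, GRCh38.p14, and searched on both strands. The members and lists were chosen with earlier results of these data known. Genes were named by rule, namely the 12 largest rises and falls (mean of at least 5 CPM, groups apart), the 6 largest differences in CPM each way, and up to 5 members of each of 39 lists with the smallest adjusted p. Other genes named, such as the rest of the BMP targets, were chosen after their values were seen. Alternatives were DESeq2 1.42.0, its size factors in edgeR, no low-count filter, a fit of all 18 H1 libraries, a GC and length correction, a replicate block and leaving out each library, with fits of only the libraries of 2 knockdowns for the differences and H9 lists at 2- and 8-fold. The values of some list members are not reported here.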

Additional observations from a re-analysis of the deposited data

Results flagged for a closer look

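The ZNF8 effect differed from the CARHSP1 effect for 3013 genes and from the ZIC2 effect for 3105, by the interaction test. Among the largest changes, these genes moved in opposite directions in the knockdowns compared, with a called change in each. PKDCC fell with ZNF8 and rose with both others, with a log2 difference of -5.47 from CARHSP1 and -5.42 from ZIC2. COL2A1 did the same, with differences of -5.14 from CARHSP1 and -6.64 from ZIC2. COL4A4 rose with ZNF8 and fell with CARHSP1, a difference of 3.24. EPAS1 differed by -5.28 and LRP2 by -3.50 from ZIC2, where both rose. GATA3 differed by -13.36 from ZIC2, but the ectoderm controls had no counts of it, so this fitted value depends on the prior count and is no bound. No explanation was tested.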

How the results depend on the processing

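Genes called in the knockdown numbered 3702, with 2616 to 3545 when 1 library was left out and 3178 to 4180 under the other alternatives. At 2-fold the 579 genes became 495 to 595 and 519 to 661. The differences from CARHSP1 and ZIC2 ranged from 2347 to 3592 and from 2582 to 3097. The naive H9 genes that fell numbered 171 with H9 lists at 2-fold and 21 at 8-fold, and the primed H9 genes that rose 138 and 11, since the lists grow or shrink. The target ZNF8 passed after correction for GC and length (-0.33, adjusted p = 0.0411), without knockdown replicate 3 (-0.39, adjusted p = 0.0413) and without control replicate 3 (-0.39, adjusted p = 0.0403), and its change ranged from -0.39 to -0.19 without 1 library. The KDR log2 change, 0.04 and not called, changed sign without knockdown replicate 2 (-0.036) and without control replicate 3 (-0.015), with a range of -0.036 to 0.128 without 1 library, and the cause was not tested. Of 167 called named genes, 148 kept direction and call in all 12 alternatives. Zinc finger genes lower ranged from 61 to 87 and higher from 13 to 22.

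The replicate numbers did not pair the libraries, as same-numbered libraries correlated by 0.02, 0.07 and -0.08. With a replicate block, 3631 genes were called, 1786 higher and 1845 lower. Depth limits genes with few counts, such as GDF6, to bounds.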
